A study of Mus musculus with 2 samples.

Results

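The 41 mouse genes described here carry chromosomes through mitosis and divide the cell afterwards. They comprise 6 spindle checkpoint genes, 2 mitotic kinases, the 4 genes of the chromosomal passenger complex, 7 kinetochore and centromere genes, 7 condensin and chromosome structure genes, 8 kinesin and spindle genes, separase with its inhibitor securin, and 5 cytokinesis genes. They were taken by name from a list and not by a rule on their values, though the list was chosen with earlier results of these data known. All 41 were found among the 43346 Ensembl genes of the gene tables, of which 21474 are protein-coding. The study sequenced RNA labelled as polyA mRNA from G1E-ER4, an immortalized mouse erythroid cell line. The labels call the cells Gata1-restored, with differentiation brought on by estradiol, and give neither strain, dose nor duration. As background, the parent G1E line lacks Gata1, and G1E-ER4 carries GATA1 fused to the hormone-binding part of an estrogen receptor, so that the hormone switches its activity. There is 1 group with 2 libraries, replicate 1 and replicate 2, and no untreated or parental cells, so no condition could be compared. Both libraries cite the same biosample record, and the spread between them may therefore be technical.

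Mitosis is run by kinases that switch on as the cell leaves the G2 phase, and it ends when a ubiquitin ligase, the anaphase-promoting complex, destroys cyclin B and securin. Kinetochores attach chromosomes to spindle microtubules, condensins compact the chromosomes, and the spindle checkpoint holds anaphase back until every kinetochore is attached. Erythroid precursors divide several times while they mature, and then lose their nucleus in an asymmetric step that resembles cytokinesis. Genes of this programme are read mainly in G2 and M phase, and many are known to be controlled by the MuvB complex with B-MYB and FOXM1 through a short promoter element called CHR (cell cycle genes homology region), often beside CCAAT boxes bound by NF-Y. In a bulk sample, fewer cells in mitosis and less RNA per cell cannot be told apart.

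Replicate 1 held 68901065 estimated counts and replicate 2 held 51923116. The 41 genes took 0.372% of them in replicate 1 (exact 95% binomial interval 0.371 to 0.374%) and 0.330% in replicate 2 (0.329 to 0.332%), where intervals cover counting error only. The least counted member had 169 counts in replicate 1 and 101 in replicate 2, so counting error was widest for Ttk, Pttg1 and Nuf2. Gata1 stood at 1498 TPM in replicate 1 and 2430 in replicate 2, where TPM is an abundance divided by transcript length and scaled to a fixed library total. Each of 8 erythroid markers reached at least 1 TPM in each library, with summed levels of 17019 TPM in replicate 1 and 19432 in replicate 2. Of 6 megakaryocyte markers 2 reached that level, Itga2b and Gp1ba, with a list sum of 49.9 TPM in replicate 1 and 65.3 in replicate 2, while Ppbp, Gp6 and Selp were at 0. None of 6 granulocyte and macrophage, 6 lymphocyte or 6 endothelial and fibroblast markers did, and none of those lists summed to more than 0.28 TPM in either library. Adgre1, Lyz2, Itgam, Cd3e, Pax5, Cdh5, Pecam1 and Dcn were at 0.

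The promoter sequences show the letters of the CHR element close to the start sites of most of these genes. RefSeq promoter windows of build GRCm38.p6, each 300 bases long from 250 before the start site to 50 after it, were found for 35 members. Aurkb, Incenp, Spc24, Kif20a, Tpx2 and Smc4 had none. The CHR was searched as TTTGAA or TTCGAA on either strand, so that TTCAAA also counts and TTCGAA reads the same on both. These letters occurred in 28 of the 35 members, or 80.0%, against 3538 of 17492 protein-coding genes with a window, or 20.2%. Within 50 bases of the start site they occurred in 25 members, or 71.4%, against 28.6% of those related genes and 5.08% of all genes. CCAAT, or ATTGG on the other strand, was in 25 members, or 71.4%, against 52.4% of the related genes and 42.3% of all genes. Both kinds of letters were held by 24 members. The erythroid GATA motif was searched on either strand as GATA with A or T before it and A or G after it. It was in 8 members, or 22.9%, against 16.2% of the related genes and 29.5% of all genes. The 7 members with a window and no CHR letters were Birc5, Cenpe, Cit, Mad2l1, Ncaph, Nuf2 and Pttg1. The lines below run 5′ to 3′ in the direction of the gene, with CHR and CCAAT letters in capitals. The first 7 cover 60 bases before to 40 after the start site, and were chosen to show abundant members (Cdc20, Plk1), scarce ones (Kif11, Ttk), the 2 members furthest apart between the libraries in scaled counts (Aurka, Ndc80) and an abundant one without the letters (Birc5). Top2a is given over the whole window because it has 4 CHR matches and 6 CCAAT matches.
Cdc20: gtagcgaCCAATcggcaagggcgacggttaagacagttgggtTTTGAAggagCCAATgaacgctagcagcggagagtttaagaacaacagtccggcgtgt
Plk1: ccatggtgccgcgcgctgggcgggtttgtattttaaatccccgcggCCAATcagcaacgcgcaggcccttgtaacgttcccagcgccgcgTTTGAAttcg
Aurka: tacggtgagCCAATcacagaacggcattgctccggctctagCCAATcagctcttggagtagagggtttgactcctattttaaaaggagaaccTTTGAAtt
Ndc80: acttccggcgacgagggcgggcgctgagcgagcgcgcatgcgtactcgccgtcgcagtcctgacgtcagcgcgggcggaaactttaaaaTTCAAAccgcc
Ttk: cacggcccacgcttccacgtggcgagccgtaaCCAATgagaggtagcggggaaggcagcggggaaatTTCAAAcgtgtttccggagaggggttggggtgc
Kif11: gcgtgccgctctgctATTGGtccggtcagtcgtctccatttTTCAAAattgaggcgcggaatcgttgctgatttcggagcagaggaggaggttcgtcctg
Birc5: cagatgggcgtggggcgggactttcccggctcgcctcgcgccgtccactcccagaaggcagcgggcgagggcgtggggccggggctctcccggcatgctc
Top2a: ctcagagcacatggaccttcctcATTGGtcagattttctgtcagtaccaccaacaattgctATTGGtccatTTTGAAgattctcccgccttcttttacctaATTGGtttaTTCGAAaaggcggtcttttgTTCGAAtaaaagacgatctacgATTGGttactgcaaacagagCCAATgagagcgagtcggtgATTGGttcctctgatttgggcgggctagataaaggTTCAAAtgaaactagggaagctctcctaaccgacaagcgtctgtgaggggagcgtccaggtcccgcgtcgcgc
These stretches lie in GRCm38.p6 as Cdc20 at chr4:118437304-118437403 (minus strand), Plk1 at chr7:122159375-122159474 (plus strand), Aurka at chr2:172370531-172370630 (minus strand), Ndc80 at chr17:71526818-71526917 (minus strand). The others are Ttk at chr9:83834629-83834728 (plus strand), Kif11 at chr19:37376322-37376421 (plus strand), Birc5 at chr11:117849177-117849276 (plus strand) and Top2a at chr11:99024140-99024439 (minus strand).
In Cdc20 the CHR letters begin 18 bases before the start site and lie between CCAAT boxes at 53 and 8 bases before it. In Plk1 and Aurka they begin 30 and 32 bases after the start site, with a CCAAT box 14 and 19 bases before it. Kif11 and Ttk carry them on the other strand, 19 bases before and 7 bases after the start. Ndc80 also has them on the other strand, 29 bases after the start, and has no CCAAT box in its window. Such a match is a description of letters and not a site shown to be bound. The ranges of levels overlapped. Members with CHR letters had a median of 20.1 TPM and ranged over 1.22 to 282 TPM, and those without had a median of 8.81 TPM and ranged over 1.60 to 138 TPM. The 6 members with no window, whose letters are unknown, had a median of 81.3 TPM and ranged over 8.94 to 287 TPM. A link between the letters and the level was not tested.

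**Figure D1:**
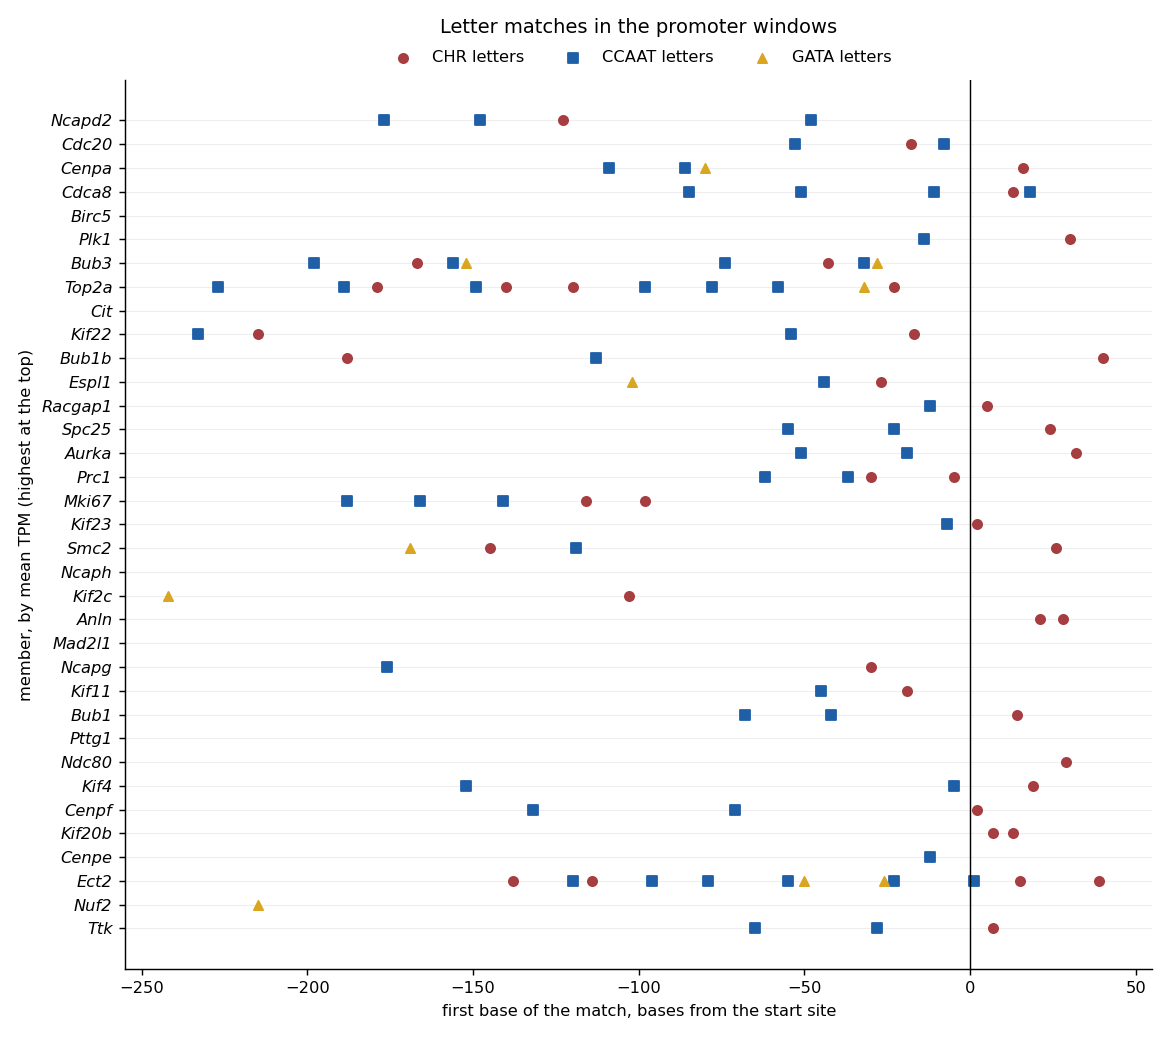
Position of each letter match (x axis, bases from the start site to the first base of the match) in the promoter windows of the 35 members, ordered by mean TPM with the highest at the top. CHR letters (circles) lie within 50 bases of the start site in 25 members, and GATA letters (triangles) appear in 8.

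All 41 members were at 1 TPM or more in both libraries, against 39.0% of protein-coding genes. Of them 25 were at 10 TPM or more in both, as were 5265 of the 8376 protein-coding genes detected in both libraries. At 100 TPM or more in both libraries stood 8 members, Cdc20, Plk1, Aurkb, Cdca8, Incenp, Birc5, Cenpa and Ncapd2, against 5.80% of all protein-coding genes. Since all members were detected, the nearer background is the 1246 of 8376 detected protein-coding genes that reached this level. Over protein-coding transcript models alone 4 members reached it, and the share of all genes by that measure was not computed. The median member had 19.2 TPM, close to the 20.5 TPM of the 8376 protein-coding genes detected in both libraries. Mean gene TPM spread 236-fold from the lowest, Ttk, to the highest, Aurkb. By role the medians were 167 TPM for the chromosomal passenger complex, 67.9 for the kinases, 21.5 for the checkpoint, 20.9 for cytokinesis, 19.2 for condensin and chromosome structure, 15.5 for separase and securin, 9.34 for kinesins and spindle proteins and 3.90 TPM for the kinetochore and centromere. Across the 41 genes the TPM of the libraries ranked alike, with a Spearman coefficient of 0.95, close to the 0.96 over the 8376 detected genes, given as a description since genes are not replicates.

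**Figure D2:**
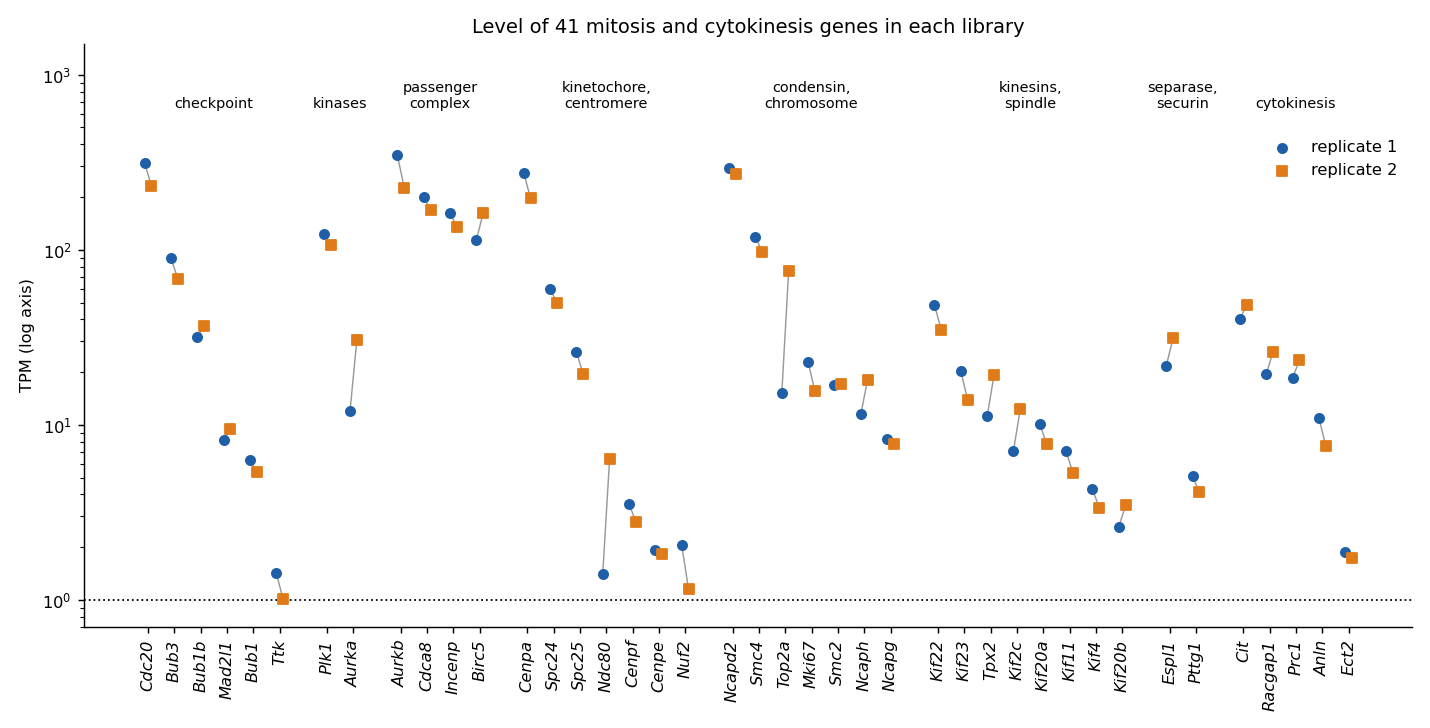
TPM of the 41 genes on a log axis, grouped by role and sorted by mean within a role, with replicate 1 as circles and replicate 2 as squares. All points lie on or above the dotted line at 1 TPM, and the widest gaps between the libraries belong to Top2a, Ndc80 and Aurka.

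The spindle checkpoint genes ran from very high to barely detected. Cdc20, the activator of the anaphase-promoting complex and the protein the checkpoint restrains, had 313 TPM in replicate 1 and 232 in replicate 2, on average 272 ± 57.1 TPM (SD, n = 2). The gene lies on the minus strand of chromosome 4 from 118432901 to 118437352 (mm10), is protein-coding, and all of its TPM came from 1 coding transcript model. Bub3, a scaffold of the checkpoint complex, had 89.9 TPM in replicate 1 and 68.3 in replicate 2. Bub1b, which encodes BubR1, a subunit of the inhibitory complex, had 31.7 and 36.8 TPM, and its kinase relative Bub1, which recruits the others to the kinetochore, had 6.29 and 5.40 TPM. Bub1b was thus 5.04 times Bub1 in replicate 1 and 6.81 times in replicate 2. Mad2l1, the MAD2 protein that captures CDC20, had 8.17 and 9.44 TPM. Ttk, the MPS1 kinase at the head of the checkpoint, had 1.42 TPM in replicate 1 and 1.01 in replicate 2, the lowest mean of any member by gene TPM. Cdc20 exceeded Ttk 220-fold in replicate 1 and 229-fold in replicate 2, so the activator stood far above the kinase that starts its restraint.

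Both mitotic kinases were present, with Plk1 high. Plk1, the polo-like kinase of mitotic entry, spindle assembly and cytokinesis, had 123 TPM in replicate 1 and 107 in replicate 2. Aurka, the centrosomal Aurora kinase, had 11.9 TPM in replicate 1 and 30.6 in replicate 2, so that Plk1 was 10.3 times Aurka in replicate 1 and 3.49 times in replicate 2. The order of the kinases held in both libraries, and the size of the gap did not. Tpx2, which binds and activates Aurora A on spindle microtubules, had 11.2 TPM in replicate 1 and 19.2 in replicate 2, and stayed below Aurka at 0.94 and 0.63 of its level, though above it by counts not divided by length.

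All 4 genes of the chromosomal passenger complex were above 100 TPM in both libraries by gene TPM, the only role for which every member was. By coding models alone Incenp and Birc5 were, while Aurkb had 68.5 TPM in replicate 1 and 64.1 in replicate 2, and Cdca8 had 90.2 and 70.8. This complex corrects faulty attachments at centromeres and later directs cytokinesis from the spindle midzone. Its kinase Aurkb (chromosome 11, 69045647 to 69051664, plus strand) had 346 TPM in replicate 1 and 227 in replicate 2. Cdca8, which encodes borealin, had 200.2 and 169 TPM, and the scaffold Incenp had 163 and 134 TPM. Birc5, which encodes survivin, had 114 TPM in replicate 1 and 162 in replicate 2 and was the 1 subunit higher in replicate 2. Aurkb was 29.1 times its paralog Aurka in replicate 1 and 7.43 times in replicate 2. That ratio depends on which transcript models are counted, as given with the models: over coding models alone it was 5.77 in replicate 1 and 2.12 in replicate 2.

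Kinetochore and centromere genes also ran from very high to barely detected. Cenpa, the histone H3 variant that marks centromeres, had 274 TPM in replicate 1 and 197 in replicate 2. The Ndc80 complex, which grips the microtubule with 4 subunits in equal amounts, was uneven as RNA. Spc24 and Spc25, the pair that faces the chromosome, had 59.8 and 26.1 TPM in replicate 1, and 49.8 and 19.4 TPM in replicate 2. Ndc80 and Nuf2, the pair that binds the microtubule, had 1.41 and 2.05 TPM in replicate 1, and 6.39 and 1.15 TPM in replicate 2. Spc25 was 12.7 times Nuf2 in replicate 1 and 16.9 times in replicate 2, and Spc24 was 42.4 times Ndc80 in replicate 1 and 7.79 times in replicate 2. Both chromosome-facing subunits thus exceeded both microtubule-binding ones in each library. Cenpf, a large kinetochore and nuclear envelope protein, had 3.55 and 2.77 TPM, and the kinesin Cenpe, which moves chromosomes to the spindle equator, had 1.93 and 1.84 TPM.

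By gene TPM, genes of condensin and chromosome structure were headed by the condensin subunit Ncapd2. By coding models alone Smc4 came first, with 85.9 TPM in replicate 1 and 56.9 in replicate 2, against 34.1 and 31.7 for Ncapd2. Ncapd2, a HEAT-repeat subunit of condensin I (chromosome 6, 125168007 to 125191701, minus strand), had 293 TPM in replicate 1 and 271 in replicate 2. The other subunits particular to condensin I were far lower, with the kleisin Ncaph at 11.5 and 18.1 TPM and the HEAT-repeat Ncapg at 8.30 and 7.80 TPM. Of the ATPases that all condensins share, Smc4 had 119 TPM in replicate 1 and 96.6 in replicate 2, and Smc2 had 16.8 and 17.0 TPM. Smc4 was 7.07 times Smc2 in replicate 1 and 5.67 times in replicate 2, although the proteins form a pair with 1 copy of each. Mki67, the Ki-67 protein that coats mitotic chromosomes and a common proliferation marker, had 22.8 TPM in replicate 1 and 15.6 in replicate 2. Top2a, the topoisomerase that untangles sister DNA, had 15.1 TPM in replicate 1 and 75.3 in replicate 2, the widest ratio in TPM of any member, while its counts of 4012 and 4351 were far closer.

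The genes particular to condensin II, which acts in the nucleus from early prophase, were set beside these. Ncaph2 had 88.6 TPM in replicate 1 and 96.9 in replicate 2, Ncapg2 had 4.46 and 3.34 TPM, and Ncapd3 had 3.26 and 3.23 TPM. The median of the 3 condensin I genes was 2.57 times that of the 3 condensin II genes in replicate 1 and 5.43 times in replicate 2. By gene TPM 1 gene stood well above the other members particular to each complex, Ncapd2 in condensin I and Ncaph2 in condensin II. By coding models the lead of Ncapd2 over Ncaph was 4.32-fold in replicate 1 and 1.78-fold in replicate 2, against 25.6-fold and 14.9-fold by gene TPM.

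Kinesins and spindle genes were mostly of modest level. Kif22, the chromosome-arm kinesin, led with 48.3 TPM in replicate 1 and 34.8 in replicate 2. Kif23, the MKLP1 subunit of centralspindlin, had 20.2 and 13.9 TPM, and Kif2c, the microtubule depolymerase MCAK, had 7.12 and 12.4 TPM. Kif11, the Eg5 motor that pushes spindle poles apart, had 7.06 and 5.29 TPM, and Kif4, a midzone and chromosome motor, had 4.28 and 3.35 TPM. Kif20a, the MKLP2 motor that carries the passenger complex to the midzone, had 10.2 TPM in replicate 1 and 7.73 in replicate 2, against 2.62 and 3.47 TPM for its paralog Kif20b. Kif20a was 3.87 times Kif20b in replicate 1 and 2.23 times in replicate 2.

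Separase exceeded its inhibitor. Espl1, the protease that opens cohesin rings at anaphase, had 21.7 TPM in replicate 1 and 31.2 in replicate 2. Pttg1, securin, had 5.09 and 4.13 TPM and the lowest count of any member, 169 in replicate 1 and 101 in replicate 2, where Ttk also had 101. Pttg1 was 0.23 of Espl1 in replicate 1 and 0.13 in replicate 2. By counts not divided by length it was lower still, since the Pttg1 model measures 696 bases and the Espl1 model 6630 bases.

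Among cytokinesis genes Cit, the citron kinase of the midbody, was highest with 40.3 TPM in replicate 1 and 48.6 in replicate 2. Racgap1, the centralspindlin partner of Kif23, had 19.4 and 26.2 TPM, and Prc1, which bundles midzone microtubules, had 18.5 and 23.4 TPM. Anln, the anillin scaffold of the contractile ring, had 10.96 TPM in replicate 1 and 7.59 in replicate 2. Ect2, the exchange factor that centralspindlin calls on to activate RhoA, had 1.87 and 1.73 TPM. Ect2 was therefore the lowest of the group, below the other 4 in both libraries.

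The level of several abundant members depended on short or non-coding transcript models. GENCODE splits the 41 genes into 217 transcript models, of which 102 are classed protein-coding, 66 retained intron, 32 processed transcript and 17 nonsense-mediated decay. The authors' TPM of a gene sums its models, so a few reads on a short model weigh as much as many reads on a long one. In 25 members more than 95% of TPM came from coding models in both libraries. In 4 members, Ncapd2, Aurkb, Cdca8 and Cenpa, coding models held under 50% in both, against 17.2% of detected protein-coding genes with that property. The leading model was the same in both libraries for 36 members and another one in each for 5, Smc2, Top2a, Ect2, Racgap1 and Mad2l1, against 12.6% of detected protein-coding genes with another one in each.

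In Ncapd2 the coding model of 4629 bases held 11.5% of TPM in replicate 1 and 11.6% in replicate 2, while a retained-intron model of 825 bases held 56.8 and 45.4%. That short model lies wholly within exons of the long one, so its reads cannot be told apart from those of the coding RNA by position. By coding models alone the excess of Ncapd2 over Ncapg was 4.19-fold in replicate 1 and 4.14-fold in replicate 2, against 35.3-fold and 34.7-fold by gene TPM. In Aurkb a processed transcript of 615 bases held 71.8% in replicate 1 and 58.4% in replicate 2, with 90.4% of its bases inside the coding model. In Cdca8 a processed transcript of 645 bases held 54.9 and 58.1%, and in Cenpa a nonsense-mediated decay model of 1151 bases held 46.6% in each library. In Smc4 the leading model was a partial coding one of 1163 bases with 41.4 and 43.1%, ahead of the long coding model of 4316 bases with 30.9 and 15.8%.

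Top2a shows the effect on a comparison between libraries. A processed transcript of 632 bases was listed at 0 in replicate 1 and held 81.1% of TPM in replicate 2, where the authors' effective length of the gene was 1285 bases, against 4402 bases in replicate 1. By coding models alone Top2a had 12.8 TPM in replicate 1 and 13.0 in replicate 2. Smc2 was the other of 2 members whose effective length differed over 1.5 times between the libraries, against 4.02% of detected protein-coding genes.

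**Figure D3:**
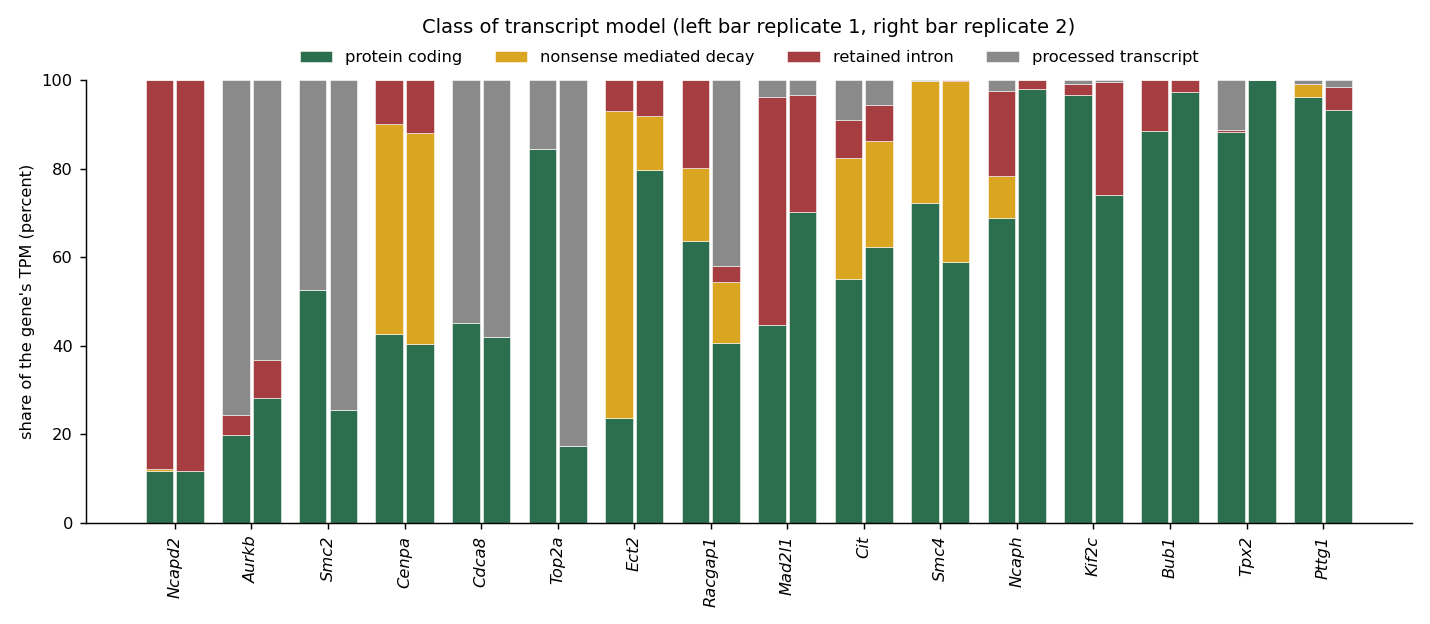
Share of each gene's TPM by class of transcript model, as stacked bars from 0 to 100%, for the 16 members with 95% or less from coding models in either library, with replicate 1 as the left bar and replicate 2 as the right. Coding models (green) hold under 50% in both libraries in Ncapd2, Aurkb, Cenpa and Cdca8, and the Top2a bars differ most between the libraries.

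A level that uses the split among models only to choose a length was formed by dividing all counts of a gene by the length of its main coding model, the coding model with the most counts, and by scaled library size. On this scale, in scaled counts per kilobase, the order from the top was Cdc20 at 216 ± 34.5, Cenpa at 148 ± 26.8, Incenp at 123 ± 10.7, Birc5 at 111 ± 29.3, Aurkb at 98.5 ± 13.3, Plk1 at 92.6 ± 4.63 and Cdca8 at 83.7 ± 1.68 (SD, n = 2). Neighbours in that order from Cenpa to Plk1 differed by less than their summed SDs. Ncapd2, second of all members by TPM, was ninth at 56.1 ± 0.14, still 8.41 times Ncapg in replicate 1 and 8.40 times in replicate 2. Smc4 remained 5.70 and 5.83 times Smc2, and Ttk was lowest at 0.88 ± 0.25. Over coding models Ect2 had the lowest mean, with 0.44 TPM in replicate 1 and 1.37 in replicate 2. The passenger complex kept the highest median of any role, 105 on this scale and 109 TPM over coding models, and the kinetochore group the lowest, 3.23 and 3.90.

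**Figure D4:**
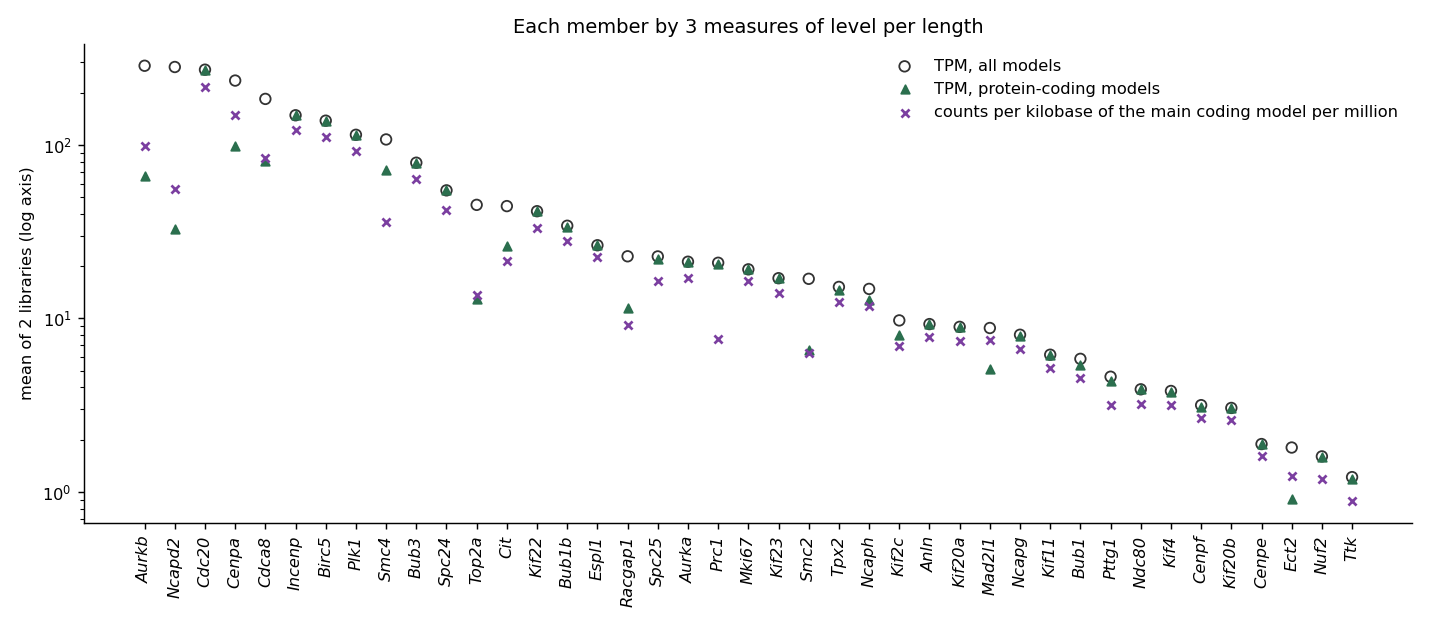
Mean of both libraries on a log axis for each member by TPM over all models (open circles), TPM over protein-coding models (triangles) and scaled counts per kilobase of the main coding model (crosses). The measures part most for Ncapd2, Aurkb, Top2a and Smc4, and lie close together for members with a single model such as Incenp and Plk1.

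Differences between the libraries were mostly under 2-fold. Counts scaled by edgeR's TMM gave 0 members more than 2-fold higher in replicate 1, against 2.00% of the 10863 genes that averaged 10 counts or more. In replicate 2, 3 members were more than 2-fold higher, against 7.73% of those genes, so both shares lie near the background. With 1 library on each side there is no test, and the intervals given hold counting error only. Ndc80 had 173 counts in replicate 1 and 590 in replicate 2, a scaled ratio of 0.205 (95% interval 0.172 to 0.244). Aurka had 1225 and 2350 counts, a ratio of 0.365 (0.340 to 0.391). Tpx2 had 2156 and 3034 counts, a ratio of 0.497 (0.471 to 0.526), so its interval reaches past the 2-fold line. Aurora A and its activator were thus both among the 3, while Aurkb, with 15044 and 8702 counts, had a ratio of 1.21 (1.18 to 1.24).

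Between 1.5-fold and 2-fold lay 8 more members. Nuf2, Smc2, Smc4 and Ttk were higher in replicate 1, with ratios of 1.75, 1.61, 1.58 and 1.51, and Ncaph, Top2a, Espl1 and Kif2c were higher in replicate 2, with ratios of 0.540, 0.645, 0.650 and 0.666. Past 1.5-fold in all were 4 members higher in replicate 1 and 7 higher in replicate 2, against 7.40% and 16.0% of all genes tested. The partners Ndc80 and Nuf2 therefore differed in opposite directions. For 8 members the counting interval included a ratio of 1, among them Ncapd2 with 1.00 (0.981 to 1.03) and Ncapg with 1.00 (0.932 to 1.08). In total 26 members were higher in replicate 1 and 15 in replicate 2, with a median log2 ratio of 0.10 against 0.01 over all genes tested, and 23 and 18 with DESeq2 size factors. The direction was the same by TPM as by scaled counts for 39 members, the exceptions being Smc2 and Cenpe.

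**Figure D5:**
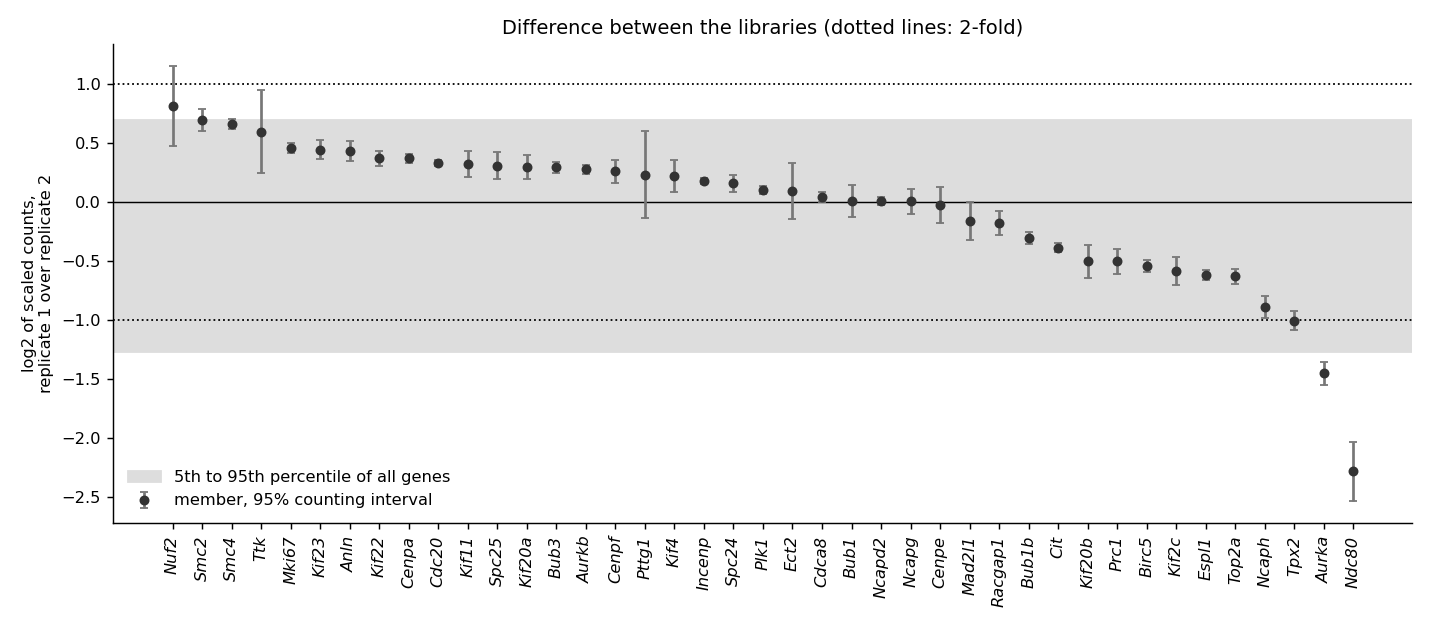
Log2 of scaled counts in replicate 1 over replicate 2 for each member, sorted, with 95% counting intervals, dotted lines at 2-fold and a grey band from the 5th to the 95th percentile of 10863 genes (-1.27 to 0.69). Ndc80 and Aurka lie below the band, Tpx2 lies at the lower dotted line, and Nuf2 lies just above the band.

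The level of the members went with the base composition of their RNA. GC content of the main coding model ranged from 39.4 to 56.1% among the members. The 9 members at a mean of 100 TPM or more had a median of 52.9% GC, and the 9 members under 5 TPM had a median of 43.0%. Across the 41 genes the Spearman coefficient of mean TPM with GC was 0.67, and 0.70 for scaled counts per kilobase, against 0.37 over 8358 detected protein-coding genes. The exceptions run both ways: Smc4 had 40.2% GC at 108 TPM, and Pttg1 had 48.3% at 4.61 TPM. These are descriptions across genes that share libraries and preparation, and the part of GC content in the levels was not tested.

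Other genes of the same pathways gave the setting. Of 120 genes in lists of mitotic partners and relatives 100 reached 1 TPM in both libraries, and their median over all 120 was 12.7 TPM. Their ranks are by gene TPM alone and were not formed by coding models or a fixed length, so short models can raise them. Of 18 genes of the anaphase-promoting complex and its cofactors 17 were detected, led by the ubiquitin-conjugating enzyme Ube2s at 676 TPM, the RING subunit Anapc11 at 247 TPM and the enzyme Ube2c at 218 TPM as means of both libraries, and Anapc10 had 0.41 TPM in replicate 1 and 0.18 in replicate 2. Of 14 mitotic entry genes 13 were detected. Cyclin A2 (Ccna2) led with 278 TPM, followed by Mybl2, which encodes B-MYB, with 120 TPM and the kinase Pkmyt1 with 111 TPM. Lin9, a MuvB subunit, had 0.57 TPM in replicate 1 and 0.54 in replicate 2 and was the 1 undetected gene of that list. All 8 genes listed as checkpoint partners were detected. Ube4b, a ubiquitin ligase, averaged 468 TPM, over an effective length of only 625 bases in replicate 1 and 629 in replicate 2. Mad1l1, the MAD2 receptor, averaged 38.9 TPM and Mad2l1bp, a MAD2 antagonist, 11.1 TPM.

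Of 26 other kinetochore genes 22 were detected. The MIS12 complex gene Pmf1 led with 296 TPM, before Cenpm with 134 TPM and Cenpw with 77.6 TPM. The lowest were Cenpk, with 0.77 TPM in replicate 1 and 0.12 in replicate 2, Ska2 with 0.78 and 0.30 TPM, and Cenpi with 0.95 and 0.45 TPM. The wide range of the member kinetochore genes was therefore seen in this list too. All 7 cohesion genes were detected, with the centromere protector Sgo1 at 43.6, the histone kinase Haspin at 29.7 and the cohesin release factor Wapl at 28.3 TPM. Sgo1 had 1462 counts in replicate 1 and 793 in replicate 2, over effective lengths of 484 and 475 bases. All 15 spindle proteins were detected, with Stmn1, which binds tubulin, at 126, Numa1 at 107 and the motor Kifc1 at 93.6 TPM. Stmn1 had 44.8 TPM in replicate 1 and 206 in replicate 2. Of 9 genes of abscission and the contractile ring 8 were detected, led by Pdcd6ip, which encodes ALIX, at 352, the myosin Myh9 at 176 and Rhoa at 139 TPM, while the myosin Myh10 had 0.01 TPM in replicate 1 and 0.02 in replicate 2.

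Of 10 paralogs of members 6 were detected. Kif2a had 27.2 TPM in replicate 1 and 49.97 in replicate 2, above its paralog Kif2c in both libraries by gene TPM, and Kif2b was at 0. The counts were closer, 1406 in replicate 1 and 1329 in replicate 2 for Kif2a, and 1121 and 1179 for Kif2c. Effective lengths were 859 and 591 bases for Kif2a, against 2615 and 2120 for Kif2c. Whether the order holds by coding models or a fixed length was not tested. The cohesin ATPases Smc3 and Smc1a had means of 33.7 and 6.95 TPM, and Top2b had 31.6 TPM in replicate 1 and 23.7 in replicate 2. Among polo-like kinases Plk4, which drives centriole duplication, averaged 17.0 TPM and Plk3 8.22 TPM, both below Plk1 at 115 TPM, while Plk5 had 2 counts and 0 counts and Plk2 was at 0. Aurkc, the Aurora kinase of germ cells, was at 0. Of 10 meiotic genes only Rec8, a meiotic cohesin subunit, was detected, with 49.3 TPM in replicate 1 and 69.9 in replicate 2. The lowest of that list, such as Sycp1, Sycp2 and Sycp3, were at 0.

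For 8 members an exon overlaps that of a gene on the opposite strand, and no source used here states whether counting used strand. Kif20a shares 1271 exon bases with Cdc23, which averaged 39.96 TPM against 8.94 TPM for Kif20a. Ncapg shares 944 bases with Lcorl, Prc1 shares 911 with Rccd1, and Kif4 shares 832 with Pdzd11, which averaged 9.90, 24.9 and 7.49 TPM. Smaller overlaps concern Cdca8, Plk1, Kif22 and Cdc20, with 232, 156, 96 and 53 bases. Reads from these stretches cannot be told apart without strand, and Kif20a, Ncapg, Prc1 and Kif4 have the longest overlaps. Their deposited counts are whole numbers in both libraries, such as 2083 and 1188 for Kif20a. Those of Cdc23 are whole too, at 2197 and 2350, while Stmn1 holds fractions, at 2420.32 and 8467.58. Whether any reads were shared between the strands was not tested.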

How the data were processed

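Each library had a gene table and a transcript table. Expected counts and posterior mean counts are estimated counts deposited by the authors, which need not be whole. TPM and FPKM were deposited by the authors, per the file headers, and the isoform share is a percent of a gene's TPM deposited by the authors. Features follow GENCODE M4 on mm10, per the labels and readme files. The aligner, the quantifier and any use of strand were stated in no source used here.

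Names, model classes, coordinates and GC content came from GENCODE M21, also on mm10, matched on unversioned identifiers. Models of M4 and M21 can differ. The members, the other gene lists and the rule for named genes were chosen with earlier results of these data known. All members were named, with the 3 highest genes and up to 3 genes under 1 TPM in either library of each pathway list, every paralog and Gata1. Comments on a member that parts from others, the added ratios, and the promoters shown were chosen after values were seen. Levels are the mean and SD of TPM over 2 libraries, and 1 TPM in both was called detected. No test was possible with 1 group. Counts were rounded, scaled by TMM (edgeR 4.0.16, R 4.3.3) over the 10863 genes averaging 10 counts or more, and compared as replicate 1 over replicate 2 with exact 95% Clopper-Pearson intervals (scipy 1.17.1). The ratio script was tested on simulated data. The posterior SD of every member's gene count is listed as 0 and these counts are whole numbers, so no spread of assignment between genes is listed. Counts of single models within a gene can hold fractions. Alternatives were other minimums, FPKM, posterior means, rescaled TPM, library totals, DESeq2 1.42.0 size factors and each library alone. Coding models alone, the fixed length and the 50-base promoter window were chosen after seeing the data.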

Additional observations from a re-analysis of the deposited data

How the results depend on the processing

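No paired analysis was possible because there is 1 group, so replicate numbers pair nothing. All 41 members were detected with a minimum of 0.5 TPM, by posterior means and in each library alone, 32 with a minimum of 5 TPM, 39 by FPKM, 40 by coding models and 38 by the main coding model alone. The median of 19.2 TPM ranged from 16.8 to 19.2 TPM over single libraries, and became 16.7 by FPKM, 23.5 after rescaling without globin, mitochondrial and ribosomal protein genes, 14.5 by coding models and 12.9 by the main coding model. The 3 members past 2-fold became 2 with library totals, which lose Tpx2, 5 with counts of coding models, which add Ect2 and Ncaph, and 11 at 1.5-fold. By the ratio of TPM they were Aurka, Ndc80 and Top2a. Library totals shift the median log2 ratio of all genes to 0.12. Smc4 over Smc2, at 6.37 on average, became 11.4 by coding models, 3.93 by the main coding model and 4.60 by counts. Condensin I over condensin II, at 4.0, became 1.57 by counts, with 1.02 in replicate 1, which is near even, and 2.12 in replicate 2. Pttg1 over Espl1, at 0.184, became 0.0156 by counts. Aurkb over Aurka, at 18.2, ranged from 7.43 to 29.1 over single libraries and became 3.94 by coding models. None of these 6 ratios (with Bub1b over Bub1 and Kif20a over Kif20b) turned its direction under these settings, but Tpx2 over Aurka, at 0.94 and 0.63 by TPM, was 1.76 and 1.29 by counts. Between libraries, the ratio of replicate 1 to replicate 2 turned for Smc2, at 1.61 by scaled counts and 0.988 by TPM, and for Cenpe, at 0.982 by scaled counts, 1.06 by library totals and 1.05 by TPM; Bub1, Ncapd2 and Ncapg, at 1.00 by scaled counts, crossed it with DESeq2 size factors. The leading model was the same in 35 members by posterior means, and in 30 of the 34 members whose leading model held at least 50% in both libraries. CHR letters were in 21 members on the gene's own strand and in 27 as TTTGAA alone. Apart from single models, the causes of these shifts were not tested. With 2 libraries from 1 biosample the SD is itself uncertain, and depth limits Ttk, Pttg1 and Nuf2 most.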
